A study of Mus musculus with 16 samples.

Results

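In the livers of 16 C57BL/6J mice, 6 genomic stretches in which many listed non-coding transcripts lie side by side were examined. The stretches are 1:23256286-23295392, near Ogfrl1; 3:79252189-79281103, in Rapgef2; 4:76371187-76437964, in Ptprd; 9:59390105-59481741, in Arih1; 19:7450065-7482361, in Rtn3; and 2:103763710-103824129, in and upstream of Caprin1, all in GRCm38 (mm10). Every listed transcript whose interval falls inside one of them is a member, which gave 71 of the 51024 listed transcripts. The chromosome 1 stretch has 23 members, Rapgef2 9, Ptprd 10, Arih1 11, Rtn3 6 and Caprin1 12. The stretches were selected on the adjusted p-values of high fat against ordinary feed. In each, tested features followed each other with gaps of at most 20 kb, and at least 6 of them had an adjusted p under 0.05. Levels in those groups therefore describe the choice and are not support for it. Applied again, that rule returned all 6 intervals with the same ends, Rtn3 and Caprin1 with exactly 6 called features. It also returned other intervals, on chromosomes 2, 8 and 12 with 7 to 52 called features, which are not described here.

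The study compared 4 groups of 4 wild-type mice, all of strain C57BL/6J: ordinary feed, a high-fat feed, and that same feed combined with a drug by gavage, either resveratrol (100 mg/kg daily) or metformin (200 mg/kg daily). Metformin lowers blood glucose, and resveratrol is a polyphenol made by plants. The labels give an age of postnatal day 21 for all mice, without saying which event it dates, and name no sex, litter or cage. All 4 sample titles of the group on high fat alone begin with the same prefix. No source used here explains it. Whatever it marks cannot be told apart from the feed in high fat against ordinary feed. The same holds for the drug in each drug group against high fat. Libraries are numbered within a group in the order of the samples and held 17.2 to 31.1 M (mega) reads. Values are FPKM, reads per kilobase of transcript scaled to the size of the library.

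Introns are transcribed together with the exons of their gene and are normally spliced out and degraded, so sequencing of total RNA captures some of them. A listed transcript inside an intron occupies the same bases as the unspliced RNA of its host, and with no use of strand the reads of both cannot be told apart. MicroRNAs are short RNAs cut from hairpins within longer primary transcripts, and their seed, bases 2 to 8, pairs with target messages. The host genes have unrelated roles. Rapgef2 activates the small GTPase Rap, Ptprd is a receptor-type protein tyrosine phosphatase, Arih1 is a ubiquitin ligase, Rtn3 shapes the tubules of the endoplasmic reticulum, and Caprin1 binds RNA in stress granules.

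The chromosome 1 interval takes its working name from Ogfrl1, but the members do not lie in that gene. Ogfrl1 is at 1:23366424-23397772, 71.0 kb beyond the end of the stretch, and none of the 23 members overlaps it. The interval instead contains the hairpins of Mir30a at 1:23272269-23272339 and Mir30c-2 at 1:23291701-23291784, both on the plus strand, and is called the Mir30 stretch here. These RefSeq sequences (GRCm38.p6) are shown because they are the mature microRNAs annotated in the interval. The seed is in capitals.
mmu-miR-30a-5p: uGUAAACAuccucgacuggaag
mmu-miR-30a-3p: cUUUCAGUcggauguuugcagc
mmu-miR-30c-5p: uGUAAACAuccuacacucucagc
mmu-miR-30c-2-3p: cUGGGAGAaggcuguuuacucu
The 5p arms of both hairpins share 1 seed, which 5 of the 1738 mature entries in the RefSeq table carry, while the 3p arms differ. The hairpin of Mir30a falls in a gap between members, 0.771 kb after one and 0.593 kb before the next. The Mir30c-2 hairpin, below with its mature arms in capitals, is inside the 4182-base member NONMMUT138548.1 and inside the Ensembl member ENSMUST00000182303 of gene Gm27028.
Mir30c-2 hairpin: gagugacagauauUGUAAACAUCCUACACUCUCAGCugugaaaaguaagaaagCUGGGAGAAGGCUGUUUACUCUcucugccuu
Mature microRNAs are not among the listed transcripts, so the values below are those of the longer RNAs around them.

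Across the 71 members, 60 were listed as a single interval and 11 in several parts. By position against the coding genes of GENCODE M21, 32 members were intronic, 28 intergenic, 1 exonic, 3 partly exonic and 7 spanning, meaning a multi-part transcript whose interval overlaps a gene. The filter of at least 1 FPKM in at least 4 libraries was passed by 60 members: 20 in the Mir30 stretch, 8 in Rapgef2, 8 in Ptprd, 10 in Arih1, 6 in Rtn3 and 8 in Caprin1. The other 11 averaged between 0.0497 and 0.382 FPKM over the 16 libraries. Single intervals made up 90.0% of the members that passed, against 76.7% of all 7413 tested features, and their median length was 1336 bases against 1661. They were more often in introns (50% against 38.1%) and ranged from 0.718 to 10.9 FPKM on average. Of the 71 members, 27 overlap another member, so for the level of a stretch only the most abundant member of each overlapping group was kept, 52 in all, and their reads were divided by their summed length. Groups were chained, so a group can hold members that overlap a common member but not each other. In the Mir30 stretch NONMMUT138534.1 joined such members, and only NONMMUT000347.2 of that group was kept.

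Ordinary-feed livers had the highest mean level in all 6 stretches and high-fat livers the lowest, with the resveratrol group above the metformin group. After median-ratio scaling this order held for the summed FPKM of 5 stretches but not for Arih1, at 34.8 on ordinary feed, 30.7 on high fat, 30.7 with resveratrol and 31.2 with metformin. Without high-fat library 4 the unscaled Arih1 level on high fat was 2.92 FPKM, above resveratrol at 2.83 and metformin at 2.78. In the other stretches high fat stayed lowest without that library. In the Mir30 stretch the level was 8.12, 6.19, 5.85 and 6.67 FPKM on ordinary feed and 4.42, 3.44, 4.12 and 2.08 on high fat. It was 5.67, 5.30, 4.88 and 5.39 with resveratrol and 5.16, 4.51, 4.40 and 3.43 with metformin. All ordinary-feed values lay above those of the other groups and all resveratrol values above the high-fat values, whereas metformin overlapped both high fat and resveratrol. As means these are 6.71 ± 1.00, 3.52 ± 1.04, 5.31 ± 0.330 and 4.38 ± 0.716 FPKM (SD, n = 4), so high fat stood at 52.4% of ordinary feed, resveratrol at 79.1% and metformin at 65.2%.

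In Rapgef2 the mean level was 2.51 ± 0.377 FPKM on ordinary feed and 1.39 ± 0.213 on high fat. It was 2.09 ± 0.311 in resveratrol livers and 1.92 ± 0.207 in metformin livers (SD, n = 4). Every drug library, from 1.71 to 2.38, was above every high-fat library, from 1.07 to 1.56. In Ptprd the same means were 2.32 ± 0.687, 0.890 ± 0.259, 1.94 ± 0.480 and 1.24 ± 0.309. Metformin livers, at 53.4% of ordinary feed, were nearer to high fat (38.3%) than resveratrol livers were (83.5%). In Rtn3 the means were 3.54 ± 0.261, 1.92 ± 0.326, 3.01 ± 0.346 and 2.5005 ± 0.452. In Caprin1 they were 3.53 ± 0.727, 1.63 ± 0.404, 3.00 ± 0.110 and 2.27 ± 0.501. As summed FPKM the resveratrol libraries of Caprin1 spread more, at 21.9, 21.4, 23.9 and 15.5, and stood at 74.9% of ordinary feed in place of 84.98%; library 4 was high in NONMMUT038859.2 and low in other members. Arih1 had the smallest contrast, 3.49 ± 0.152, 2.49 ± 0.876, 2.83 ± 0.654 and 2.78 ± 0.249. These levels belong to bulk tissue, in which fewer cells of a type and less RNA per cell cannot be told apart.

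**Figure D1:**
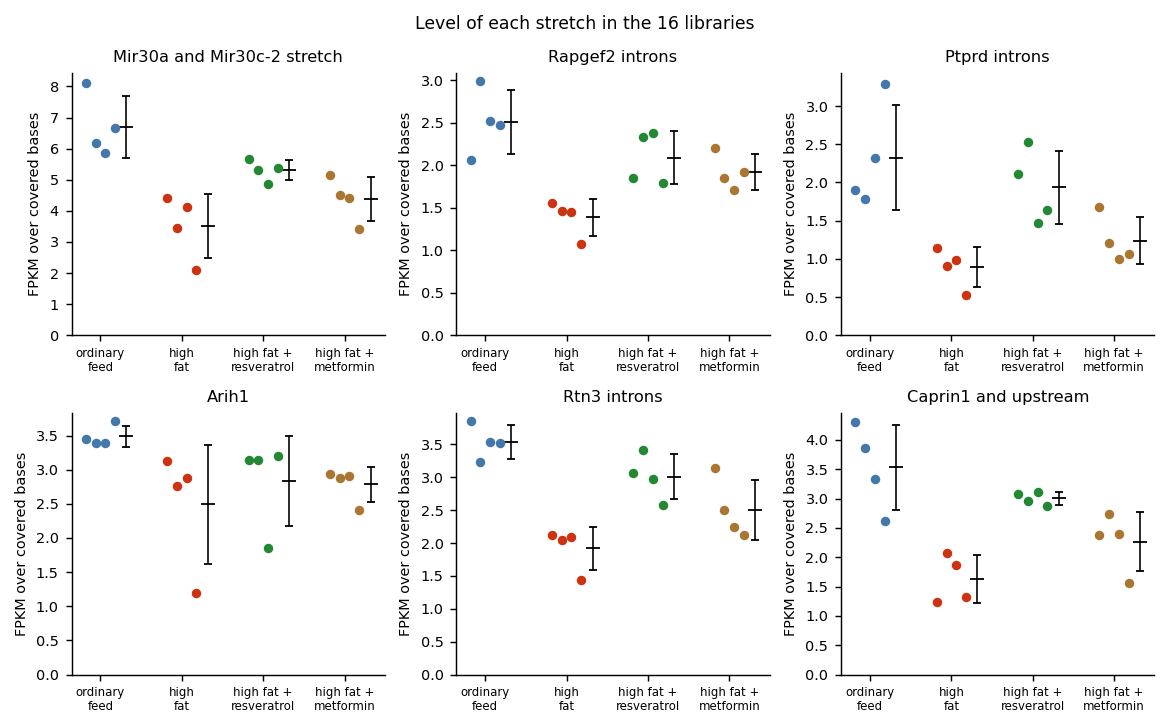
Level of each stretch as FPKM over the bases its non-overlapping members cover. Each point is 1 library, the black marks are the mean ± SD of 4 libraries, and every vertical axis starts at 0. The high-fat mean is the lowest of the 4 in each panel, and high-fat library 4 is the lowest high-fat value in all panels but Caprin1. Without that library the high-fat mean of Arih1 is 2.92 FPKM, above both drug means.

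The levels were also taken without high-fat library 4 and after median-ratio scaling. High-fat library 4 stood apart, with a median ratio to the other libraries of 0.691 against 0.885 to 1.15 elsewhere and 4274 features at 1 FPKM or more. Without it, the summed FPKM of the Mir30 stretch in high fat came to 61.1% of ordinary feed in place of 54.6%, and that of Ptprd to 44.0% in place of 39.1%. Scaling all libraries to equal median ratios gave 64.7% and 46.5%. Over all 7413 features that scaling moved the median high-fat change from -0.16 to -0.0015 on the log2 scale, and the share of lower features among those called from 80.6% to 45.02%.

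Member by member, the median change between high fat and ordinary feed was -0.69 on the log2(FPKM + 1) scale, with a range of -1.48 to -0.14, and none of the 60 was above 0. Over all tested features the median was -0.16, and 31.8% were above 0. By limma with Benjamini-Hochberg adjustment over the 7413 features, 48 of the 60 had an adjusted p under 0.05, all of them lower, where 11.8% of all features were called lower. In 48 of the 60 every high-fat value was also below every ordinary-feed value, where this held for 17.3% of all features. The rule fixed these counts in large part. By stretch it was 13 of 20 in the Mir30 stretch, 8 of 8 in Rapgef2, 8 of 8 in Ptprd, 7 of 10 in Arih1, 6 of 6 in Rtn3 and 6 of 8 in Caprin1. The members closest to the threshold were NONMMUT069364.2 in Arih1, with an adjusted p of 0.0475, and NONMMUT107580.1 in Caprin1, with 0.0574. The count was 31 without high-fat library 4, 31 after median-ratio scaling and 19 with both, while the share of all features called lower went from 11.8% to 5.74%, 4.94% and 2.98%. With both, it was 4 in the Mir30 stretch, 4 in Rapgef2, 4 in Ptprd, 0 in Arih1, 5 in Rtn3 and 2 in Caprin1.

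Resveratrol against metformin is the comparison whose group values came from no library of the choosing contrast. Its standard errors, p-values and intervals came from the 1 fit of all 16 libraries, which includes the choosing groups. They are therefore not free of the choice. With these 2 groups fitted alone, no member was called. Of the 60 members, 55 were higher with resveratrol, where 64.8% of all features were. The median of the 60 was 0.19 on the log2 scale against 0.07 over all features. After median-ratio scaling 49 of 60 were higher, with a median of 0.13 against -0.0002 over all features. None passed the test (limma, lowest adjusted p among members 0.765), and the share of all features called was 0.00%. An unadjusted p under 0.05 was found for 9 members, 15.0%, against 6.35% of all features. All 4 resveratrol values exceeded all 4 metformin values in 7 of the 60, where 3.66% of all features did so. The 95% intervals of the other 51 members held 0, and the median width over all 60 was 0.73.

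The differences of NONMMUT138534.1 in the Mir30 stretch (0.89), NONMMUT038859.2 in Caprin1 (0.59) and NONMMUT069357.2 in Arih1 (-0.49) are moved by libraries described further on. The first has reads in 2 resveratrol libraries and 1 metformin library. Without resveratrol library 4 the second was 0.29, and its groups do not overlap with or without that library. Without resveratrol library 3 the third was 0.086. Next in size was NONMMUT047774.2, a 5542-base single interval in a Ptprd intron. It read 2.51, 3.09, 1.80 and 1.97 FPKM with resveratrol and 1.91, 1.30, 1.08 and 1.08 with metformin. Metformin library 1 lay above resveratrol library 3, and the other metformin values were below all resveratrol values. The difference was 0.51 with a 95% interval of 0.14 to 0.88 (SE 0.17, adjusted p = 0.765, limma). In Rtn3 the largest was NONMMUT033749.2, at 0.34, with 3.38 ± 0.726 FPKM with resveratrol and 2.43 ± 0.336 with metformin (SD, n = 4, adjusted p = 0.765, limma). In Rapgef2 the largest was NONMMUT113498.1, at 0.27, with groups that overlap (2.13 to 3.29 and 1.69 to 2.497 FPKM).

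The other 4 comparisons each share a group with the choosing contrast, and their values are given as description. Resveratrol was above high fat in 59 of 60 members (median 0.49, all features 0.13) and metformin in 55 of 60 (median 0.24, all features 0.07). Of all features, 70.9% and 64.8% were above high fat. The 4 resveratrol values all exceeded the 4 high-fat values in 29 of 60 members, where 6.91% of all features did. For metformin this held in 7 of 60, where 2.56% of all features did. No member was called with resveratrol against high fat, where 0.0809% of all features were, nor with metformin against high fat (0.027%). Against ordinary feed, 58 of 60 members were lower with resveratrol (median -0.20, all features -0.04). With metformin 60 of 60 were lower (median -0.43, all features -0.09). Of all features, 56.8% and 64.7% were lower in these comparisons. Again no member was called, where 0.283% and 0.297% of all features were. An unadjusted p under 0.05 was found against high fat for 43 members (71.7%, against 16.2% of all features) with resveratrol and for 10 (16.7% against 7.47%) with metformin. Against ordinary feed it was found for 5 (8.33%, below the 13.2% of all features) with resveratrol and for 43 (71.7% against 20.1%) with metformin.

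**Figure D2:**
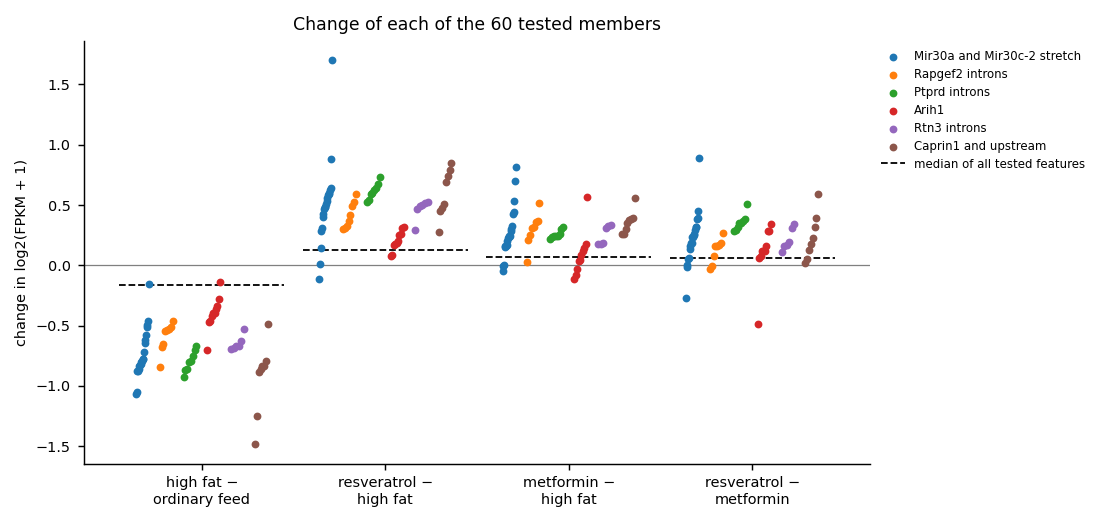
Change of each of the 60 tested members in 4 comparisons, in log2(FPKM + 1). Each point is 1 member, colours are stretches, and dashed lines are the medians of all 7413 tested features. All members lie below 0 for high fat against ordinary feed, and 55 of 60 lie above 0 for resveratrol against metformin; the first 3 comparisons share the high-fat libraries.

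The Mir30 stretch had the most abundant intergenic members. Its leading member, NONMMUT138544.1 (1:23280927-23281346), read 8.42, 9.28, 7.94 and 7.69 FPKM on ordinary feed, 6.41, 3.29, 6.15 and 2.28 on high fat, 7.76, 5.86, 6.29 and 7.80 with resveratrol and 6.58, 7.43, 6.92 and 3.85 with metformin. High-fat libraries 2 and 4 were the lowest of all 16. NONMMUT138545.1, the next member along, read 8.79, 7.62, 6.05 and 9.47 on ordinary feed, 5.39, 5.19, 4.92 and 3.79 on high fat, 7.16, 7.14, 7.16 and 6.83 with resveratrol and 6.34, 4.86, 6.47 and 5.61 with metformin. Its resveratrol values were all above its metformin values, by 0.25 on the log2 scale (adjusted p = 0.792, limma). NONMMUT138540.1 ran from 7.14 to 9.59, 2.63 to 5.43, 5.78 to 7.20 and 4.06 to 6.21 in the same group order.

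The member that holds the Mir30c-2 hairpin, NONMMUT138548.1, read 7.13, 5.33, 5.35 and 5.53 FPKM on ordinary feed, 3.44, 2.77, 3.15 and 1.85 on high fat, 4.52, 4.27, 3.80 and 4.16 with resveratrol and 4.33, 3.85, 3.76 and 3.00 with metformin. The ordinary-feed and high-fat values did not overlap, and both drug groups lay between them apart from metformin library 4. ENSMUST00000182303, the 399-base annotated transcript at the same hairpin, had 1 read in each of the 16 libraries. NONMMUT138539.1, the member that starts 0.593 kb after the Mir30a hairpin, ran from 6.48 to 10.1 FPKM on ordinary feed, 2.42 to 5.48 on high fat, 4.75 to 7.17 with resveratrol and 4.01 to 5.48 with metformin. The group means of NONMMUT138548.1 and NONMMUT138539.1, chosen for their position after values were seen, had the order of the stretch. The member that ends 0.771 kb before the Mir30a hairpin, NONMMUT138534.1, did not, with means of 2.58 FPKM on ordinary feed, 0 on high fat, 4.81 with resveratrol and 2.15 with metformin. Levels were lower at both ends of the interval. The first member, NONMMUT138533.1, averaged 2.03 FPKM and the last, NONMMUT138549.1, 1.75, and neither was called between high fat and ordinary feed (-0.16, adjusted p = 0.428, and -0.58, adjusted p = 0.173, limma). The nearest tested features outside lay 1956 kb before and 571 kb after.

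A multi-part member of the Mir30 stretch was present in some libraries and absent from others. NONMMUT138534.1 (1:23256291-23271498) had 405, 410, 434 and 395 reads in ordinary-feed library 4, resveratrol libraries 1 and 2 and metformin library 1, and 0 reads in the other 12, the 4 high-fat libraries among them. The 4 libraries with reads came from 3 groups. NONMMUT075139.1 (1:23267275-23270829), a multi-part member inside the same interval, was low in those 4, at 111 to 155 reads. In the other libraries of those 3 groups it had 246 to 425 reads, and in high-fat library 4, 97. Its mean with resveratrol was 2.20 FPKM in the 2 libraries with NONMMUT138534.1 and 5.79 in the 2 without. No source used here says how reads were shared between overlapping transcripts. Without the pair, the 18 other tested members summed to 116 ± 15.3 FPKM on ordinary feed and 63.5 ± 18.4 on high fat. In the resveratrol group this sum was 93.7 ± 5.28 and in the metformin group 78.2 ± 14.0 (SD, n = 4).

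In Rapgef2 the 8 tested members lie in the first intron of the longest isoform. That isoform starts at 3:79286517 on the minus strand, 5.41 kb from the end of the stretch. The leading member NONMMUT113498.1 (3:79270894-79271693) read 3.33, 3.61, 2.44 and 2.86 FPKM on ordinary feed, 2.48, 1.49, 2.08 and 1.77 on high fat, 2.13, 3.29, 2.82 and 2.29 with resveratrol and 2.497, 1.70, 2.17 and 1.69 with metformin. Ordinary feed and high fat overlap in it. In NONMMUT113500.1 (3:79278993-79279870) every group was apart from the next except ordinary feed and resveratrol, with means of 2.88 ± 0.434, 1.44 ± 0.382, 2.48 ± 0.203 and 2.12 ± 0.154 (SD, n = 4). NONMMUT113501.1, nearest to the start, averaged 3.05 ± 0.658, 1.26 ± 0.422, 2.41 ± 0.586 and 2.22 ± 0.529. At the far end, NONMMUT043546.2 averaged 2.33 ± 0.480, 1.32 ± 0.218, 1.93 ± 0.360 and 1.99 ± 0.228, so that its metformin mean was not below its resveratrol mean. The 4 tested features of the same gene within 100 kb or in its other introns were not called, with a median high-fat change of -0.30, and the closest, NONMMUT043540.2, lay 88.6 kb away at 1.95 ± 0.559 FPKM on ordinary feed and 1.47 ± 0.428 on high fat (SD, n = 4).

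Ptprd spans 2271 kb, of which the stretch covers 66.8 kb in the first intron of an isoform that starts at 4:76449980 on the minus strand. NONMMUT047775.2 (4:76428825-76430509) read 2.61, 2.31, 3.65 and 4.16 FPKM on ordinary feed, 1.96, 1.16, 1.27 and 1.19 on high fat, 3.23, 3.54, 2.02 and 2.099 with resveratrol and 2.45, 2.09, 1.60 and 1.68 with metformin. Resveratrol was above high fat without overlap, while metformin overlapped all 3 other groups. NONMMUT047776.2, nearest to the start, averaged 2.76 ± 0.491, 0.979 ± 0.302, 2.17 ± 0.566 and 1.49 ± 0.549 (SD, n = 4). NONMMUT047768.2, at the far end, averaged 1.69 ± 0.776, 0.678 ± 0.377, 1.39 ± 0.352 and 0.950 ± 0.0422, and its lowest resveratrol value of 1.02 exceeded its highest metformin value of 1.01. The 8 members were alike over the 16 libraries, with a median Pearson r of 0.91 between pairs (28 pairs). The 5 other tested features in the gene were not called between high fat and ordinary feed, and their median change was -0.02.

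Arih1 members differed by their place in the gene. In introns, the 8 tested members with NONMMUT identifiers, 1 of them partly exonic, summed to 17.2 ± 1.09 FPKM on ordinary feed and 11.3 ± 2.03 on high fat. With the drugs they summed to 14.6 ± 0.908 (resveratrol) and 12.03 ± 1.47 (metformin; SD, n = 4). The high-fat sum was 12.3 ± 0.725 without library 4 (n = 3). The exonic member is NONMMUT069357.2 (9:59390105-59392736), all of whose 2632 bases lie in the 3′ untranslated region of Arih1. It read 11.98, 12.5, 12.8 and 13.7 FPKM on ordinary feed and 13.9, 12.03, 12.1 and 1.00 on high fat. It read 12.2, 11.7, 1.72 and 12.96 with resveratrol and 11.3, 11.9, 12.6 and 10.4 with metformin. Apart from high-fat library 4 and resveratrol library 3, at 58 and 94 reads where the other 14 had 544 to 985, the values of the exonic member overlapped between the 4 groups, from 10.4 to 13.9 FPKM. The multi-part NONMMUT069358.2 that overlaps it averaged 0.124 FPKM. Those 2 libraries set the spread of the Arih1 level given above. NONMMUT069368.2, the intronic member nearest to the start of the gene (9:59477745-59481741), read 2.92, 2.72, 2.32 and 3.33 on ordinary feed, 2.23, 2.099, 2.00 and 1.57 on high fat, 2.41, 2.19, 2.62 and 2.26 with resveratrol and 2.44, 2.46, 2.15 and 1.88 with metformin.

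**Figure D3:**
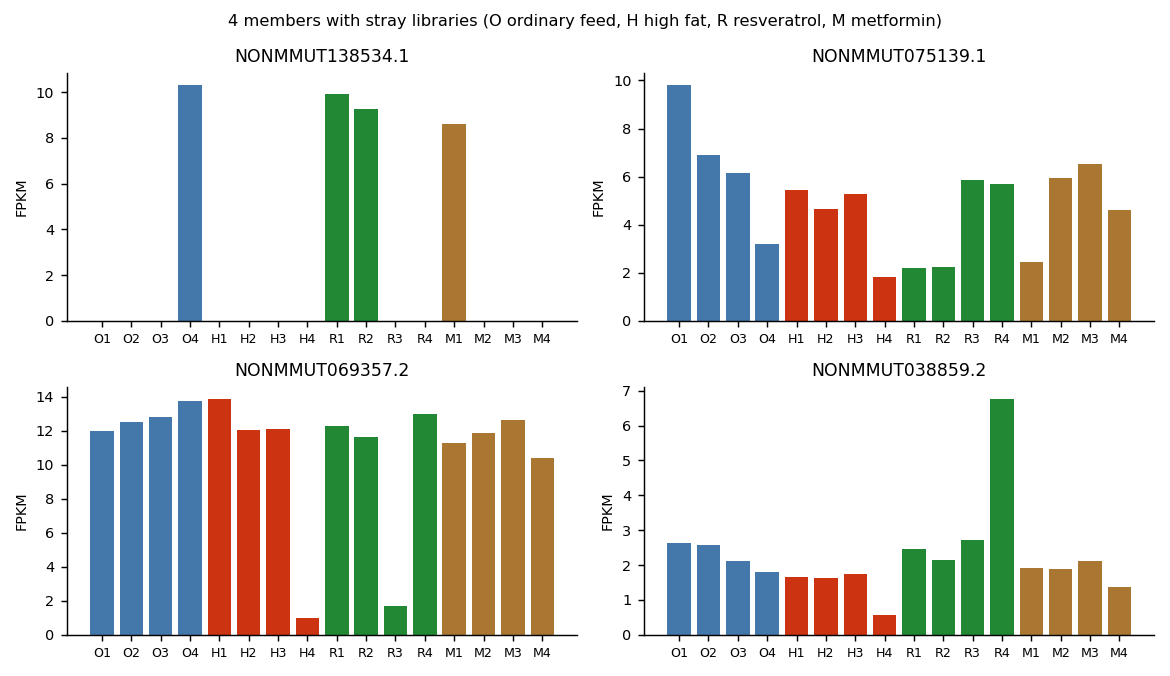
FPKM in each library (bars, axis from 0) of 4 members whose values in some libraries were far from the rest. NONMMUT138534.1 is at 0 in 12 libraries, NONMMUT075139.1 is low where the former is present, NONMMUT069357.2 is low in high-fat library 4 and resveratrol library 3, and NONMMUT038859.2 is high in resveratrol library 4.

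The 6 members of Rtn3 changed by -0.69 to -0.53 between high fat and ordinary feed. NONMMUT033756.2 (19:7479778-7482361), next to the start, read 4.62, 3.47, 4.22 and 3.63 FPKM on ordinary feed, 2.42, 2.40, 2.49 and 2.47 on high fat, 3.40, 3.55, 3.14 and 2.79 with resveratrol and 3.68, 3.01, 2.55 and 2.51 with metformin. The 4 high-fat libraries, library 4 included, lay between 2.40 and 2.49 FPKM, below all others. NONMMUT033755.2 averaged 3.76 ± 0.579, 2.03 ± 0.544, 3.22 ± 0.490 and 2.43 ± 0.620, and NONMMUT033748.2, at the other end, 2.94 ± 0.456, 1.44 ± 0.261, 2.501 ± 0.191 and 2.07 ± 0.433 (SD, n = 4). The 2 tested neighbours, 51.4 kb and 52.3 kb away, were not called (median -0.11).

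The 250 bases upstream of the RefSeq start of Rtn3 (19:7483292-7483541, minus strand, GRCm38.p6) begin 0.931 kb beyond the last member. They are shown because the members run up to this start and move together, with the motif found in capitals.
Rtn3 upstream: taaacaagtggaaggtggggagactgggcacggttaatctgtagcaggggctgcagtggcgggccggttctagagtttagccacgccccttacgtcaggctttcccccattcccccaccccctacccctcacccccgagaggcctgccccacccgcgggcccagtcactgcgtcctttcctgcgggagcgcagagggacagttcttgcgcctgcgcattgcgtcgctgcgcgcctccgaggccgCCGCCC
The motifs searched on both strands were TATAAA (core promoter box, in 12.4% of the 32851 RefSeq windows of this length), CCAAT (33.8%), GGGCGG (GC box, 32.7%), CACGTG (E-box, 6.02%), GCGCATGC (NRF1 core, 2.26%), TGACGTCA (cyclic AMP response element, 1.55%) and CCGGAAG (ETS site, 6.91%). Only the GC box was present. The window holds 67.2% G or C and 20 CpG pairs, against medians of 52.4% and 6. The corresponding windows of Caprin1 and Arih1, which overlap annotated exons, hold 78.0% and 80.8% G or C, 31 and 40 CpG pairs and GC boxes. The table's 2 Rapgef2 windows, which do not adjoin the stretch, hold 47.2% and 44.8% G or C, 8 and 4 CpG pairs and none of the motifs. These letters describe the sequence and do not show that a factor bound there.

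Within introns, members farther from the start site had lower levels. Distance was measured from the nearest isoform start upstream of the stretch. In Ptprd this start, 4:76449980, lies inside the gene, whose interval on the minus strand ends at 4:78211961. In Ptprd the Spearman rho of the mean FPKM of the 8 members with distance was -0.95, from 1.85 at 13.3 kb to 1.18 at 77.8 kb, and rho was below 0 in all 16 libraries. In Arih1 rho was -0.83 over the 8 members with NONMMUT identifiers, also below 0 in all 16, with a low around the middle of the gene and a rise at the member 84.6 kb away. In Rtn3 rho was -0.66 over 6 members and below 0 in all 16 libraries, and in Rapgef2 -0.71 over 8 members and below 0 in 12. Members of a stretch share libraries and may differ in base composition, so these values are descriptive.

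**Figure D4:**
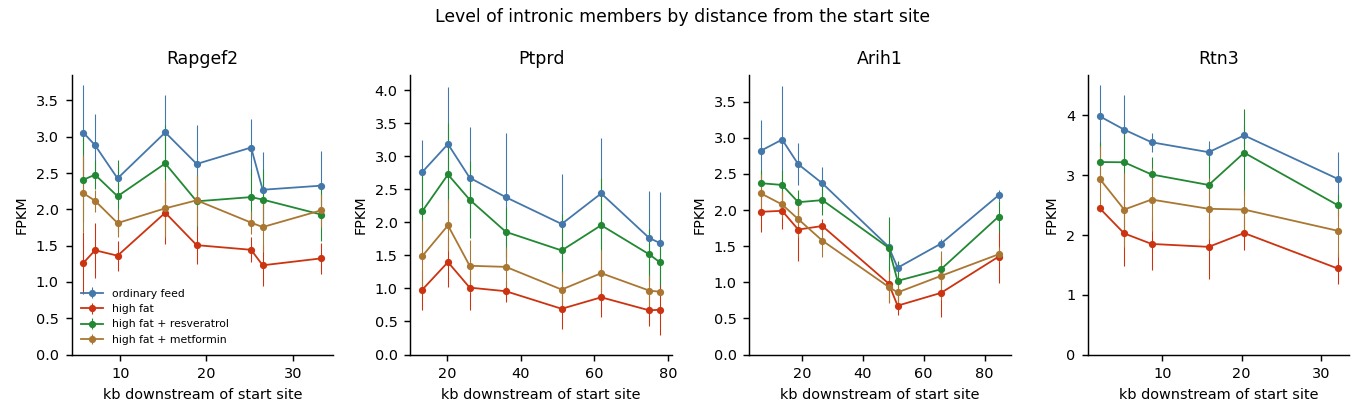
FPKM of the intronic members with NONMMUT identifiers of 4 genes against the distance of their midpoint from the nearest upstream isoform start, in kb. Points are means of 4 libraries and bars their SD. In Ptprd and Rtn3 the line for ordinary feed lies highest and that for high fat lowest at every position, and levels decline with distance in Ptprd from 1.85 to 1.18 FPKM over all libraries.

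The Caprin1 stretch divides at the start of the gene. The gene, on the minus strand, ends its interval at 2:103797649, and the stretch continues upstream for 26.5 kb. Inside the gene 4 tested members summed to 21.9, 18.2, 16.7 and 13.5 FPKM on ordinary feed, 6.94, 10.6, 9.47 and 7.45 on high fat, 14.6, 14.8, 15.1 and 13.6 with resveratrol and 11.5, 14.3, 12.998 and 9.06 with metformin. Upstream 4 intergenic members summed to 13.2, 11.4, 8.78 and 3.69 on ordinary feed, 1.07, 3.33, 2.03 and 0.754 on high fat, 6.67, 6.05, 7.97 and 1.44 with resveratrol and 5.42, 4.10, 3.40 and 1.76 with metformin. The upstream part spanned 17.5-fold over the 16 libraries and the part inside the gene 3.16-fold. The upstream minimum, in high-fat library 4, rested on 4, 1, 1 and 10 reads in the 4 members. The intervals of the upstream members NONMMUT038873.2 and NONMMUT107580.1 overlap. High fat was at 19.4% of ordinary feed upstream and 49.1% inside, resveratrol at 59.7% and 82.8%, and metformin at 39.6% and 68.1%. The 82.8% includes resveratrol library 4, where NONMMUT038859.2 alone supplied 6.77 of the 13.6 FPKM inside the gene. Library 4 of the ordinary-feed, resveratrol and metformin groups was the lowest of its group in both parts; a replicate number is only a name here and links no animals.

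**Figure D5:**
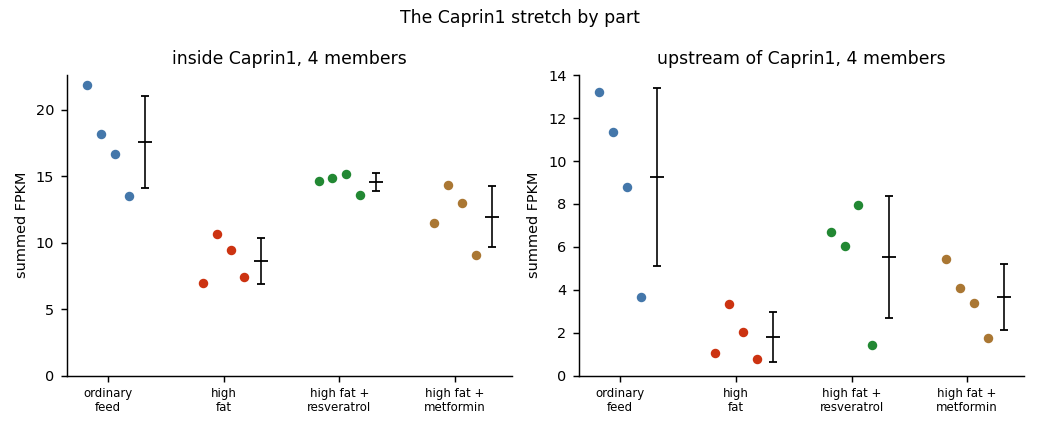
Summed FPKM of the tested members of the Caprin1 stretch inside the gene and upstream of it. Points are libraries and black marks the mean ± SD of 4. Upstream, ordinary feed averages 9.26 FPKM and high fat 1.80, and 1 ordinary-feed library (3.69) and 1 resveratrol library (1.44) lie far below the rest of their groups.

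The most abundant member inside the gene was the intronic NONMMUT038869.2 (2:103788786-103792825), which read 9.13, 7.997, 7.27 and 6.05 FPKM on ordinary feed, 2.49, 4.55, 4.21 and 3.86 on high fat, 6.59, 6.57, 6.41 and 3.77 with resveratrol and 5.05, 6.67, 5.57 and 3.68 with metformin. Resveratrol library 4 was the lowest of its group. The partly exonic NONMMUT038867.2 next to it, at 4.67 ± 0.915, 2.16 ± 0.401, 3.40 ± 1.04 and 3.19 ± 0.785 (SD, n = 4), had the same low resveratrol library. NONMMUT038859.2 (2:103763710-103769497), a multi-part member mostly in Caprin1 exons, went the other way: it read 2.47, 2.13, 2.71 and 6.77 with resveratrol, against 1.81 to 2.64 on ordinary feed, 0.566 to 1.73 on high fat and 1.36 to 2.12 with metformin. Library 4 supplied 524 reads, where the other 15 libraries gave 42 to 224. At the upstream end NONMMUT107582.1 (2:103821614-103824129) read 3.71, 3.28, 2.76 and 1.66 on ordinary feed, 0.386, 1.41, 0.609 and 0.181 on high fat, 2.27, 2.26, 2.0999 and 0.503 with resveratrol and 1.74, 1.13, 0.948 and 0.465 with metformin. Its ordinary-feed and high-fat values did not overlap, whereas both drug groups reached into the high-fat range. No tested feature outside the stretch lay within 100 kb of the stretch.

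Over the 16 libraries, pairs of members of 1 stretch that do not overlap correlated with a median Pearson r of 0.80 (322 pairs, log2(FPKM + 1)), and pairs from different stretches with 0.66 (1436 pairs). By stretch the median was 0.75 in the Mir30 stretch, 0.79 in Rapgef2, 0.91 in Ptprd, 0.65 in Arih1, 0.88 in Rtn3 and 0.87 in Caprin1. After median-ratio scaling the values within and between stretches were 0.62 and 0.46, and in the 8 drug-treated libraries alone 0.58 and 0.42. All pairs share the libraries and the diet groups. What part of r goes with these was not tested.

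Features at marker genes were sparse in these non-coding lists. Linked features reached the filter for 5 of 10 hepatocyte genes, 1 of 6 macrophage, 0 of 5 endothelial, 1 of 5 stellate, 0 of 4 cholangiocyte and 0 of 4 lymphocyte genes, and none was linked for adipocyte or pancreatic acinar genes. The summed hepatocyte features ranged from 49.9 to 83.0 FPKM on ordinary feed, 59.6 to 83.7 on high fat, 76.1 to 112 with resveratrol and 72.2 to 94.99 with metformin. Most of that sum was the feature linked to Serpina1a, which averaged 62.7 FPKM, and the one linked to Hnf4a, at 11.1. Those of macrophages ranged from 0.386 to 4.09, 0.543 to 1.06, 0.967 to 4.30 and 0.487 to 3.83 in the same order. Summed endothelial features stayed at or below 1.17 FPKM, cholangiocyte at or below 1.33, lymphocyte at or below 1.40 and stellate at or below 2.81 in every library. Their part in the results was not tested.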

How the data were processed

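RNA of 16 mouse livers, 4 per group, was sequenced, and the authors deposited 1 table per library with an FPKM value for each of 51024 listed transcripts. The submitters' processing notes name Bowtie 0.12.2, Cufflinks 2.1.1 and GRCm38/mm10. No source used here gives the annotation release, the use of strand or filters. FPKM times length gave whole multiples of 1 read (tolerance 0.05 of a read, values under 20000 reads) in 100% of values, which gave library totals of 17.2 to 31.1 M (mega) reads. Values of Ensembl transcripts were summed per gene, 49988 features in all. The 7413 with at least 1 FPKM in at least 4 libraries were tested as log2(FPKM + 1) in 1 limma 3.58.1 fit (R 4.3.3, 12 residual degrees of freedom) with Benjamini-Hochberg adjustment; folds are on that scale and understate changes of low values. The fit was tested on simulated data. Replicates were numbered in sample order, nothing states separate cultures or cages, and p-values measure the spread between these libraries.

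Members, lists and tests were chosen with earlier results of these data known. Stretch levels have no p-value for that reason. Named with their values are, per stretch, the 3 tested members with the highest mean FPKM, the member with the largest resveratrol-metformin difference and the members at each end; 1 member is not reported here. Annotation came from GENCODE M21 and sequences from RefSeq (GRCm38.p6). Base composition of the intervals was not analysed here. Alternatives were another pseudocount, no filter, 2 scalings, pairwise fits, unsummed transcripts and leaving out each library.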

Additional observations from a re-analysis of the deposited data

Results flagged for a closer look

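Among the groups of 4 values examined for a library far from the other 3 (120 groups, of which chance marks about 1 in 20), 14 were marked. Resveratrol library 4 appears in 5 of them: NONMMUT138545.1 at 6.83 FPKM (others 7.14 to 7.16), NONMMUT038869.2 at 3.77 (6.41 to 6.59), NONMMUT038867.2 at 1.86 (3.75 to 4.13), NONMMUT038859.2 at 6.77 (2.13 to 2.71) and NONMMUT107582.1 at 0.503 (2.0999 to 2.27). The last 4 are all in the Caprin1 stretch, where this library was low in 3 members and high in 1.

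High-fat library 4 was low in the summed Rtn3 level, at 8.77 FPKM (others 12.3 to 12.9), in NONMMUT069357.2, at 1.00 (12.03 to 13.9), and in NONMMUT038859.2, at 0.566 (1.63 to 1.73). Resveratrol library 3 was low in the summed Arih1 level, at 23.0 (35.5 to 36.2), and in its member NONMMUT069357.2, at 1.72 (11.7 to 12.96). NONMMUT138534.1 was at 10.3 in ordinary-feed library 4 and 8.61 in metformin library 1, with 0 in the other 3 libraries of each group. NONMMUT113501.1 was high in metformin library 1, at 3.01 (1.92 to 2.01), and NONMMUT047775.2 in high-fat library 1, at 1.96 (1.16 to 1.27).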

How the results depend on the processing

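The 48 members called lower between high fat and ordinary feed became 13 with no filter on low values (where 0.400% of all features were called lower, against 11.8%), 31 with median-ratio scaling (4.94%), 19 when that scaling was applied and high-fat library 4 dropped (2.98%), and 21 with 2 groups fitted at a time (4.60%); leaving out each library gave 31 to 48. Of the comparisons with no calls, resveratrol against high fat gave 0 to 1 when single libraries were left out, the 1 without resveratrol library 4, where 44 features rose and 13 fell among 7321. Metformin against ordinary feed gave 1 with quantile normalization, where 39 features rose and 21 fell among 7413. It gave 4 with high-fat library 4 left out and the rest median-ratio scaled, where 120 rose and 57 fell among 7347. Resveratrol against metformin gave 0 under every alternative run. The cause of these shifts was not tested.

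The log2 change of the summed level between high fat and ordinary feed was -0.91 in the Mir30 stretch, -0.90 in Rapgef2, -1.35 in Ptprd, -0.47 in Arih1, -0.89 in Rtn3 and -1.34 in Caprin1, and stayed below 0 under every alternative run. It moved by more than 1 SD of the libraries under median-ratio scaling in Rapgef2 (-0.61) and Rtn3 (-0.61), and under quantile normalization in Rapgef2 (-0.63) and Rtn3 (-0.65). With high-fat library 4 left out and the rest median-ratio scaled, it was -0.56 in the Mir30 stretch, -0.64 in Rapgef2, -0.10 in Arih1 and -0.61 in Rtn3. Leaving out each library gave ranges of -1.04 to -0.71, -0.97 to -0.79, -1.48 to -1.14, -0.57 to -0.25, -0.94 to -0.76 and -1.53 to -1.19 in the order of the stretches. Over all 60 members, 58 stayed below 0 for high fat against ordinary feed with median-ratio scaling. Among the members named here, direction turned in 4 cases, none called: NONMMUT138533.1 (0.040 with median-ratio scaling, 0.014 with quantile normalization) and NONMMUT069357.2 (0.13 for high fat against ordinary feed when high-fat library 4 was dropped and median ratios scaled, and for resveratrol against metformin -0.70 to 0.086 when single libraries were left out, the highest without resveratrol library 3). No paired analysis was possible because the labels give no replicate numbers. At 1 kb, 1 read is worth 0.0321 to 0.0580 FPKM, which limits members below the filter.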

Other observations

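NONMMUT138538.1, a 327-base member inside the interval of NONMMUT075139.1 in the Mir30 stretch, had 22 reads in high-fat library 4 and 1 or 2 reads in each of the other 15 libraries. In the same library NONMMUT075139.1 had 97 reads, its lowest value. NONMMUT138538.1 was below the filter and was chosen after its values were seen.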
